A study of Schizosaccharomyces pombe with 12 samples.

Results

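The comparison described here sets fission yeast kept for 24 h in heavy water against the same strain kept for 5 h in it. Heavy water (D2O) is water whose hydrogen is deuterium. The 24 h and 5 h groups hold 8 of the 12 samples of the series, 4 in each, taken by sample title, and every protein-coding gene was compared. Both groups were wild-type Schizosaccharomyces pombe without selection markers, in exponential phase per the labels. They were kept in YES, a rich medium of yeast extract, glucose, adenine, uracil and leucine, made with 100% D2O. The 4 remaining samples were untreated cells of the same strain in YES made with ordinary water, called the control. They serve as the level from which each gene had departed at 5 h. The files listed 5114 protein-coding genes among 7015 features, and 5098 of them had enough counts to be tested. No culture kept for 24 h or 5 h in ordinary water was analysed here, so an effect of time in D2O cannot be told apart from one of time in culture or of the change of medium. The samples are bulk RNA, in which fewer cells of a kind and less RNA per cell cannot be told apart. The study's design text calls the 4 samples of a condition independent without saying that each was a separate culture, and p-values measure the spread between these samples.

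Several of the functions below have well-known switches in this organism. Thiamine in the medium represses genes for making and taking up thiamine, among them nmt1, whose promoter is widely used for regulated expression. When iron is plentiful the repressor Fep1 shuts off genes that acquire iron, and when iron is scarce Php4 shuts off genes whose products use it. Genes for ribosomal proteins and ribosome assembly are high in fast-growing cells and low under stress, while chaperone genes are driven by the heat shock factor Hsf1 and stress genes by the kinase Sty1.

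Total counts per sample lay between 26775612 and 27166349. Normalised read counts are given as CPM, edgeR's read counts scaled to library size and to TMM factors, and those factors lay between 1.011 and 1.072 at 24 h, 1.043 and 1.058 at 5 h, and 0.879 and 0.944 in the controls. Beside a CPM value ± gives the SD over 4 samples, and beside a log2 fold change the SE. A count of 3, taken as the floor, was worth 0.104 to 0.126 CPM. The floor covers counting error alone. Ribosomal RNA features took 2.836% of the counts in 24 h replicate 2, against 0.113% to 0.172% in the other 24 h samples and 0.062% to 0.123% at 5 h. Of the protein-coding genes, 57.3% overlapped another listed feature, and the strandedness of the libraries is not given in the sources used here, so reads of overlapping features may be shared. The percentage called changed was 69.4% among tested genes with such an overlap and 70.5% among those with none.

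Between 5 h and 24 h the cells' transcripts shifted in many genes by small amounts and in a few pathways by large ones. The largest rises were in thiamine synthesis and uptake, the tricarboxylic acid cycle and a handful of single genes, and the largest falls were in iron and heme acquisition. Ribosomal protein genes fell a further step below control, and most cytosolic chaperone genes fell back. A gene was called higher or lower at a Benjamini-Hochberg adjusted p under 0.05 in edgeR's quasi-likelihood test. At 24 h 1790 genes (35.1%) were higher than at 5 h and 1773 (34.8%) were lower, so that 69.9% were called in either direction. In 62.9% of the genes the 4 samples at 24 h did not overlap the 4 at 5 h. The median log2 fold change over all tested genes was -0.01, and the median size among called genes was 0.33. Changes of at least 2-fold leaned upward, with 191 genes higher (3.75%) and 45 lower (0.883%).

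**Figure D1:**
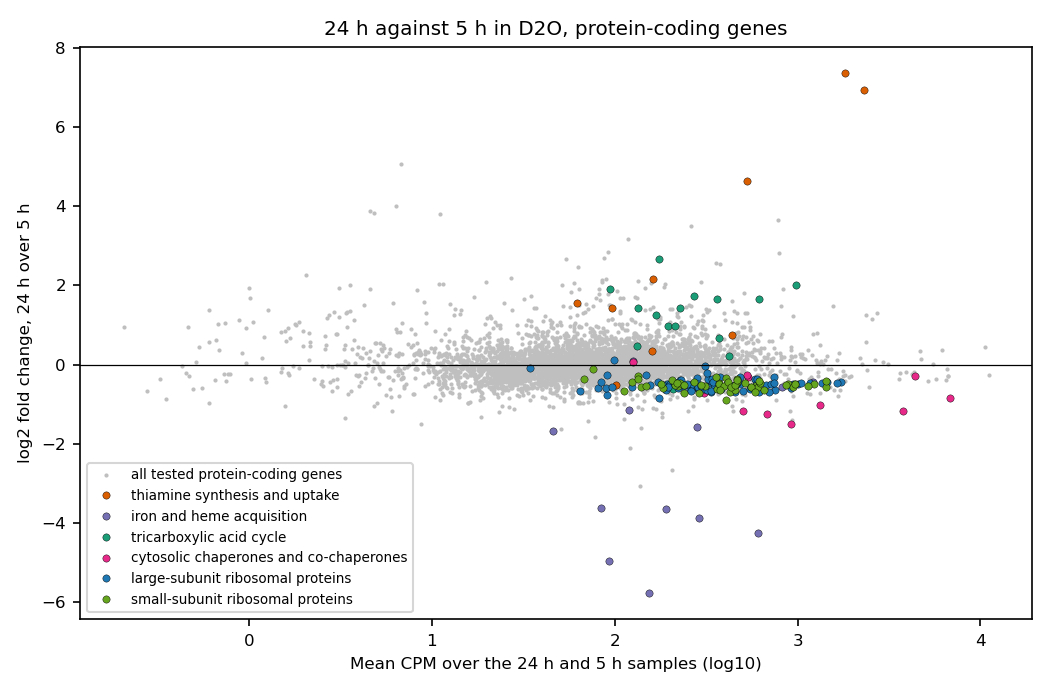
Log2 fold change of 24 h over 5 h (vertical axis) against the mean CPM of the 8 D2O samples on a log10 axis, 1 point per tested protein-coding gene, with 6 function lists coloured. Most thiamine and tricarboxylic acid cycle genes lie above 0, most iron acquisition and chaperone genes below it, and the ribosomal protein genes form a band near -0.50.

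To say which functions moved on and which returned, each gene's change between 5 h and 24 h was set beside its change between control and 5 h, in which 78.4% of the genes were called, 39.2% higher and 39.3% lower. Both comparisons use the same 4 samples at 5 h, so a chance deviation at 5 h pushes them in opposite directions, and the classes below are a description. A gene moved on where both calls had the same direction and returned where they were opposite. There were 1792 genes that moved on (35.2%), 883 upward and 909 downward. There were 1109 that returned (21.8%). Of those, 467 were still called on the 5 h side of control at 24 h, 387 were no longer called against control, and 255 had gone past control to the other side. A further 662 genes were called between 5 h and 24 h without a call at 5 h. Another 1097 were called at 5 h against control and not between 5 h and 24 h, and 438 were called in neither comparison. Changes of at least 2-fold at 24 h fell mostly among genes that moved on upward (106 genes) or that crossed control, with 49 higher and 16 lower. Against control, 82.2% of the genes were called at 24 h.

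**Figure D2:**
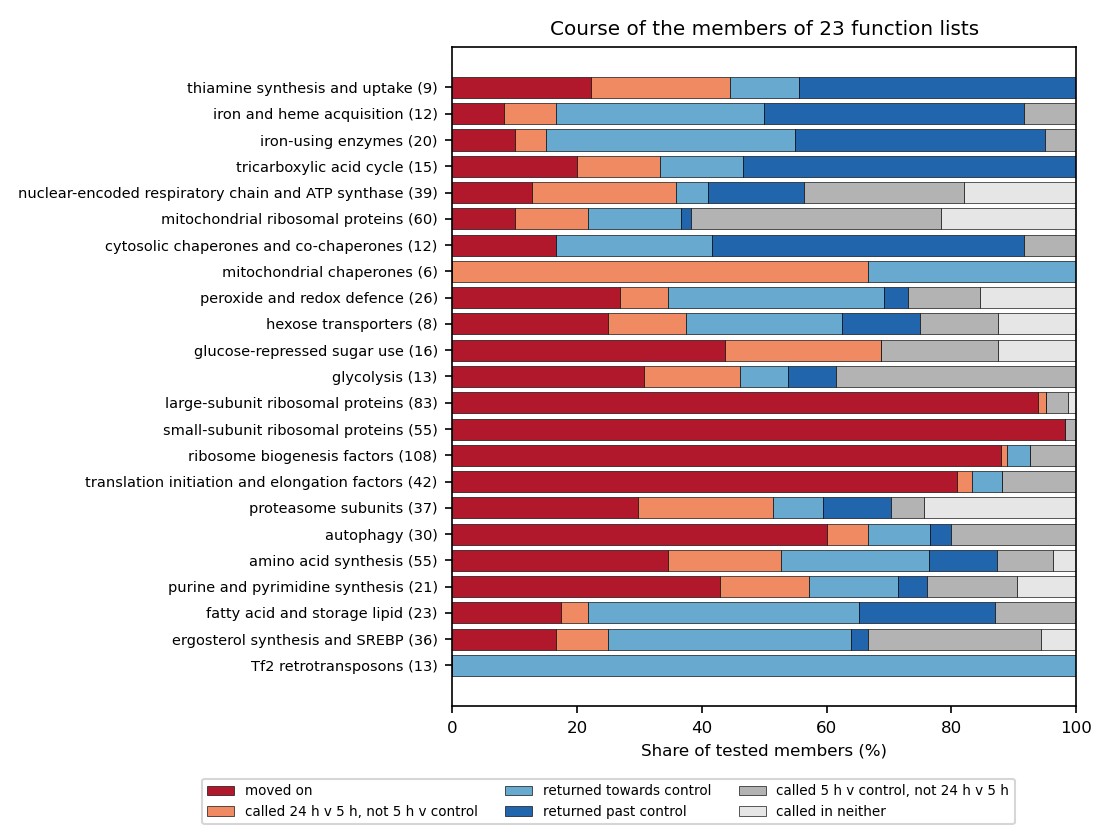
Share of the tested members (percent, horizontal axis) of 23 function lists in each class of course, with the number of members in brackets. Most ribosomal protein genes moved on, all 13 Tf2 elements returned, and 8 of 15 tricarboxylic acid cycle genes returned past control.

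Genes of thiamine synthesis and uptake were mostly higher at 24 h than at 5 h, with nmt1, thi2 and thi9 among the largest rises. Of the 9 listed, 8 were higher, as were 35.1% of all genes, and 1 was lower, with a median log2 fold change of 1.55, against -0.01 over all genes. The pyrimidine-branch enzyme gene nmt1 rose to 3599.5 ± 460.4 CPM at 24 h, against 21.7 ± 0.921 CPM at 5 h (n = 4 each), a log2 fold change of 7.37 ± 0.12. The whole of nmt1 overlaps the non-coding feature prl10, so the reads of that pair cannot be told apart. The thiazole enzyme gene thi2, which has no overlapping feature, changed by 6.94 ± 0.08. Neither nmt1 nor thi2 was called at 5 h, where their log2 changes from control were 0.17 and 0.03. The high-affinity thiamine transporter gene thi9 had 1143, 1010.0, 1037 and 878 CPM at 24 h, against 42.6, 43.3, 42.02 and 36.3 CPM at 5 h (log2 fold change 4.63 ± 0.09, adjusted p = 2.87e-14). No 24 h sample of thi9 came near a 5 h sample. Its control level of 316 ± 21.9 CPM lay between those of both D2O groups: relative to control, thi9 stood at -2.95 at 5 h and 1.69 at 24 h on the log2 scale.

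The thiamine-repressible acid phosphatase gene pho4 and the vitamin B6 carrier gene bsu1 followed thi9 in crossing control. For pho4 the counts were 296, 254, 259.5 and 257 CPM at 24 h, against 57.8, 59.1, 58.7 and 63.9 CPM at 5 h (log2 fold change 2.16 ± 0.06, adjusted p = 5.12e-13), with 166 ± 8.06 CPM in the control. The change of bsu1 was 1.55 ± 0.07, and thi5, which encodes a transcription factor of this pathway, changed by 1.42 ± 0.04. The thiamine phosphate synthase gene thi4 rose by 0.76 to a level not called against control, and tnr3, the kinase that makes thiamine diphosphate, rose by 0.34 and moved on. The transcription factor gene thi1 was the 1 member that fell, with 84.04, 85.3, 82.9 and 84.2 CPM at 24 h, against 118, 119, 120.1 and 123 CPM at 5 h (log2 fold change -0.51 ± 0.03, adjusted p = 5.23e-09). SPCC18B5.05c, annotated as a phosphomethylpyrimidine kinase, the activity that follows nmt1 in the pathway, was not on the list and was among the 15 largest rises. It had 105, 104, 107 and 109 CPM at 24 h, against 18.6, 20.03, 19.7 and 18.97 CPM at 5 h (log2 fold change 2.46 ± 0.05, adjusted p = 2.87e-14).

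Iron and heme acquisition moved the other way. Of 12 genes, 11 were lower at 24 h, as were 34.8% of all genes, and none was higher. The fall was at least 2-fold in 9 of them (0.883% of all genes), and the median log2 fold change was -2.66. At 5 h 9 of the 12 had been above control, where 39.2% of all genes were, with a median of 0.97, so 9 were classed as returned, 5 of them past control. The siderophore transporter gene str3, the heme receptor gene shu1 and the siderophore transporter gene str1 fell the most, by log2 fold changes of -5.78, -4.97 and -4.27. The summed counts of the 12 genes were 2249, 2202, 2183 and 2201 CPM at 24 h, against 5987, 5917, 5499 and 5961 CPM at 5 h, so the groups were well apart.

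The reductive uptake system fell together. Its ferroxidase gene fio1 had 40.7, 34.2, 36.8 and 35.8 CPM at 24 h, against 505, 520.4, 554 and 584 CPM at 5 h (log2 fold change -3.88 ± 0.08, adjusted p = 4.14e-14). In the control fio1 stood at 528 ± 46.04 CPM, and at 5 h it was not called against it. The partner permease gene fip1 had 30.9, 26.4, 29.6 and 26.7 CPM at 24 h, against 364, 342, 352 and 359.6 CPM at 5 h (log2 fold change -3.64 ± 0.06, adjusted p = 2.37e-15), and its control level was 277 ± 6.91 CPM. The ferric reductase gene frp1, which supplies this pair with reduced iron, had 10.9, 12.3, 13.3 and 13.8 CPM at 24 h, against 152, 179.5, 130.0 and 162 CPM at 5 h (log2 fold change -3.63 ± 0.10, adjusted p = 8.99e-13). These 3 genes, like thi9 and pdc201, are among those named by size, which were chosen with no overlap between the groups, so their separation is a description (the groups did not overlap in 62.9% of all genes). A further reductase gene, frp2, changed by -1.69 ± 0.08, and at 21.95 ± 1.85 CPM it remained above its control level of 9.88 ± 1.11 CPM.

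Ferrichrome synthesis fell less. Ferrichrome is the siderophore that this yeast makes, and sib2 (ornithine monooxygenase) and sib1 (the peptide synthetase) changed by -1.15 ± 0.06 and -0.57 ± 0.05, both staying above control. The third gene of the pathway, sib3, averaged 130.4 ± 4.57 CPM at 24 h and 123 ± 8.59 CPM at 5 h and was not called (log2 fold change 0.08 ± 0.05, adjusted p = 0.137). The siderophore transporter gene str2 was below control at 5 h (-0.53) and lower again at 24 h (-0.43 ± 0.05), the 1 gene of the list that moved on. The gene of the vacuolar transporter Abc3 changed by -1.57 ± 0.05, and an antisense feature overlaps it in part. Among the regulators, the repressor gene php4 had 40.9, 38.5, 39.3 and 37.6 CPM at 24 h, against 104, 107, 106 and 102 CPM at 5 h (log2 fold change -1.43 ± 0.04, adjusted p = 4.16e-13), and at 24 h it was -0.39 on the log2 scale relative to control. The glutaredoxin gene grx4, whose product is a partner of both Fep1 and Php4, changed by -1.38 ± 0.05. The gene fep1 rose by 0.42, to a level not called against control, after a change of -0.49 at 5 h. Over the 9 regulators 3 were higher and 4 lower at 24 h, where 35.1% and 34.8% of all genes were.

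**Figure D3:**
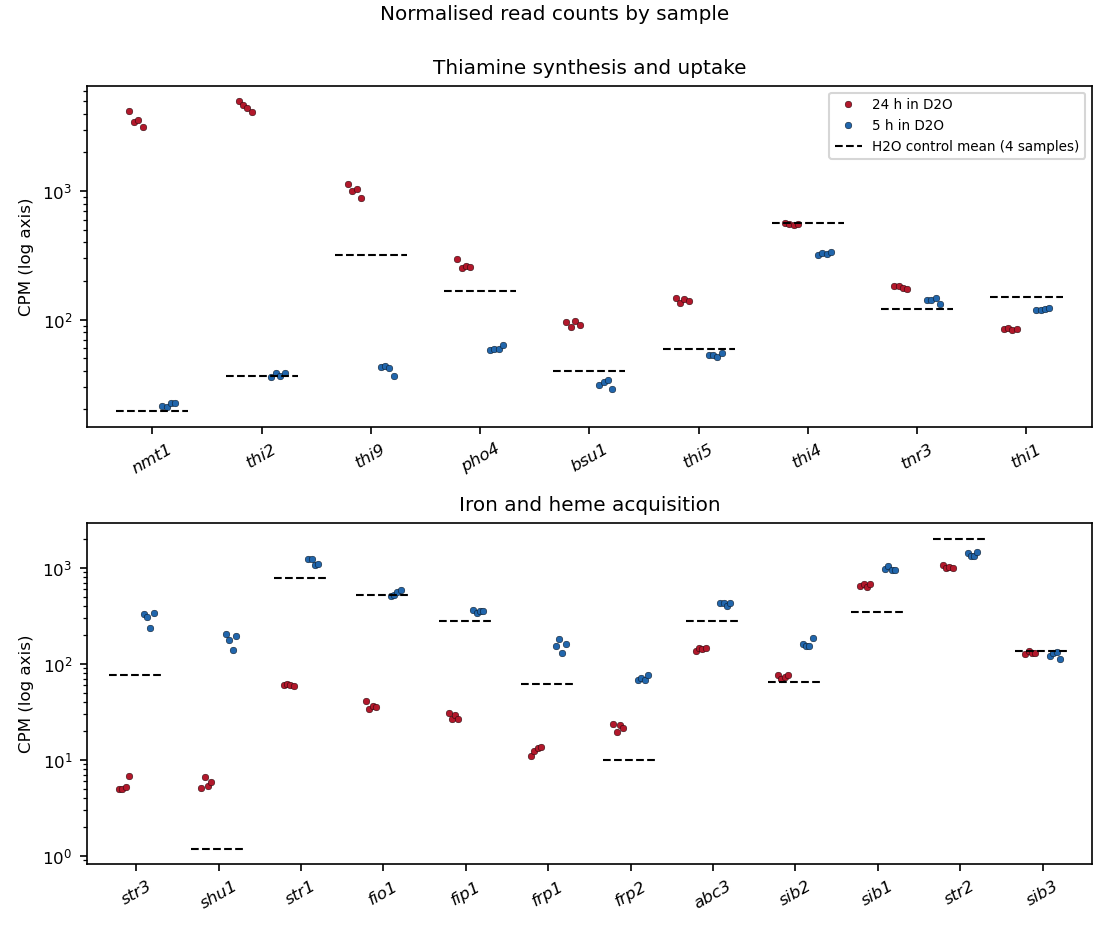
CPM on a log axis for the 9 thiamine genes (upper panel) and the 12 iron and heme acquisition genes (lower panel), with the 4 samples at 24 h in red left of the 4 at 5 h in blue, and the control mean as a dashed line. The 24 h samples of nmt1 lie between 3145 and 4235 CPM, and those of str3 between 5.00 and 6.84 CPM.

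Genes whose products carry, store or assemble iron mostly rose. Of 20 listed, 18 were higher at 24 h and 1 lower, with a median log2 fold change of 1.29. Over all genes 35.1% were higher. At 5 h 16 of them had been below control (median -1.11), where 39.3% of all genes were. Of the 20, 16 returned, 8 of these past control, as did 21.8% and 5.00% of all genes. The 4 subunits of succinate dehydrogenase, the enzyme that links the tricarboxylic acid cycle to the respiratory chain, were all higher. The iron-sulfur subunit gene sdh2 had 307, 317, 294 and 298 CPM at 24 h, against 47.01, 44.5, 50.03 and 48.5 CPM at 5 h (log2 fold change 2.68 ± 0.06, adjusted p = 7.8e-14), with 173 ± 13.6 CPM in the control. Its partners sdh4, sdh1 and sdh3 changed by 1.91, 1.66 and 1.44. Every 24 h sample of the 4 subunits exceeded every 5 h sample, and the groups did not overlap in 62.9% of all genes. The gene sdh2 is among those named by size, which were chosen with no overlap.

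The aconitase gene aco1 had 1678, 1483, 1509 and 1632 CPM at 24 h, against 402, 358, 386 and 419.5 CPM at 5 h (log2 fold change 2.01 ± 0.06, adjusted p = 2.18e-12). The cytochrome c gene cyc1 changed by 1.80 ± 0.07, the iron-sulfur assembly gene isa1 by 1.68 ± 0.05, the vacuolar iron importer gene pcl1 by 1.51 ± 0.05, glutamate synthase glt1 by 1.35 ± 0.06 and biotin synthase bio2 by 1.23 ± 0.07. The member that fell was isu1, which encodes the scaffold for iron-sulfur cluster assembly, with 294, 265, 306 and 284 CPM at 24 h, against 606, 575, 542 and 631 CPM at 5 h (log2 fold change -1.03 ± 0.06, adjusted p = 4.68e-09). It had been 1.55 above control at 5 h on the log2 scale. The homoaconitase gene lys2 was not called (log2 fold change -0.08 ± 0.06, adjusted p = 0.248). The catalase gene ctt1, a heme enzyme that breaks down peroxide, was an exception to the returning course. It had 681, 624, 613 and 647 CPM at 24 h, against 109, 95.9, 111 and 122 CPM at 5 h (log2 fold change 2.55 ± 0.10, adjusted p = 4.4e-11), with 84.6 ± 13.3 CPM in the control, and moved on upward.

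Of 15 genes of the tricarboxylic acid cycle, which oxidises acetyl groups in the mitochondrion, 14 were higher at 24 h, where 35.1% of all genes were, and 1 was lower, with a median of 1.43. The rise was at least 2-fold in 9 of them (3.75% of all genes). The iron list holds 6 of these genes as well. The rise included enzymes outside that list: malate dehydrogenase mdh1 had 432, 401, 418 and 421 CPM at 24 h, against 128, 131, 134 and 114 CPM at 5 h (log2 fold change 1.73 ± 0.08, adjusted p = 1.3e-10), having been at 121 ± 14.1 CPM in the control. The 2-oxoglutarate dehydrogenase gene kgd1 changed by 1.66 ± 0.05, citrate synthase cit1 by 1.43 ± 0.06, and the NAD-linked isocitrate dehydrogenase genes idh1 and idh2 by 1.25 ± 0.05 and 0.97 ± 0.04. The NADP-linked isocitrate dehydrogenase gene idp1 fell (log2 fold change -0.61 ± 0.05, adjusted p = 3.78e-08).

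The rest of the respiratory apparatus moved less. Of 39 nuclear genes of the respiratory chain and ATP synthase, 21 were higher and 1 lower (2 lower without 24 h replicate 4, 5 h replicate 2 or 5 h replicate 4), with a median of 0.19, and the 5 changes of at least 2-fold were the succinate dehydrogenase subunits and cyc1. Of 60 mitochondrial ribosomal protein genes, 16 were higher and 7 lower (median 0.05), where 35.1% and 34.8% of all genes were. Without 5 h replicate 4 the number lower was 11, and without 24 h replicate 4 or 5 h replicate 1 the median was 0.03 or 0.02. Of the 8 genes of the mitochondrial genome none was higher and 4 were lower, where 34.8% of all genes were lower, and without 5 h replicate 4 there was 1 higher. The 4 genes cox2, cox3, atp6 and cob1 changed by -0.74, -0.68, -0.67 and -0.35. The lowest value of the list was that of atp8, which was not called (log2 fold change -1.49, adjusted p = 0.0748). Without 24 h replicate 2 it changed by -2.95 and was called. It was also called without 5 h replicate 4 and with the replicate number as a block. The fall of atp6 had an adjusted p of 0.0406, and the call was lost without 24 h replicate 1, 3 or 4 or 5 h replicate 1, 2 or 3, when the compared groups were fitted alone, and by DESeq2. The cox3 values show the spread behind them, with 702, 806, 709 and 633 CPM at 24 h, against 1302, 1279, 1214 and 765 CPM at 5 h. The groups of cox3 overlapped, since 5 h replicate 4 lay below 24 h replicate 2, and cox1 was not called (log2 fold change 0.13 ± 0.08, adjusted p = 0.164), though it was called when the compared groups were fitted alone.

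Cytosolic chaperone genes fell back from their 5 h levels. Of 12, none was higher and 11 were lower at 24 h, where 34.8% of all genes were, with a median log2 fold change of -0.79. Without 5 h replicate 1 there was 1 higher. At 5 h 10 had been above control, against 39.2% of all genes, and 9 returned, against 21.8%, of which 6 passed below control. The Hsp70-Hsp90 adaptor gene sti1 had 531, 519.8, 459 and 415 CPM at 24 h, against 1306, 1351, 1443 and 1319 CPM at 5 h (log2 fold change -1.49 ± 0.08, adjusted p = 1.05e-09), with 762 ± 64.7 CPM in the control. The gene of the Hsp90 chaperone itself, hsp90, had 2402, 2514, 2212 and 2146 CPM at 24 h, against 5327, 5154, 5495 and 5062 CPM at 5 h (log2 fold change -1.18 ± 0.06, adjusted p = 1.84e-10), with 4534 ± 229.6 CPM in the control. In both genes every 24 h sample lay below every 5 h sample and below the control mean. The 24 h and 5 h groups did not overlap in 62.9% of all genes, and sti1, named by size, was chosen with no overlap. The Hsp40 gene mas5, the Hsp90 co-chaperone gene wos2 and the Hsp110 gene pss1 changed by -1.25, -1.18 and -1.03.

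The chaperone genes ssa1 and hsp104, among the most raised at 5 h, kept most of that rise. The Hsp70 gene ssa1 averaged 478 ± 45.1 CPM at 24 h and 594 ± 21.9 CPM at 5 h (log2 fold change -0.32 ± 0.07, adjusted p = 0.00114), against 83.3 ± 6.15 CPM in the control. The disaggregase gene hsp104 changed by -0.27 ± 0.07 after a rise of 1.98 at 5 h. The small heat shock protein gene hsp16 went higher still, with 444, 484, 454 and 518 CPM at 24 h, against 178, 184, 191 and 183 CPM at 5 h (log2 fold change 1.37 ± 0.08, adjusted p = 2.07e-09), and its control level was 19.8 ± 2.71 CPM. The small heat shock gene hsp9 was not called between 24 h and 5 h (log2 fold change 0.25 ± 0.12, adjusted p = 0.0719), though it was called without control replicate 2 or 4, when the compared groups were fitted alone, and by DESeq2. The fall of hsp20 (-0.15 ± 0.06) and the rise of hsf1 (0.20 ± 0.07) each lost the call when any of 3 single samples was left out. All 6 mitochondrial chaperone genes were lower at 24 h (median -0.69), where 34.8% of all genes were. They ranged from hsp78 (-0.92 ± 0.05) to the Hsp40 gene mdj1 (-0.14 ± 0.03), with the Hsp70 gene ssc1 at -0.65 ± 0.06. Of the 6, 4 had not been called against control at 5 h and 2 returned. In the endoplasmic reticulum the Hsp70 gene bip1 and the calnexin gene cnx1 fell by 0.79 and 0.71 on the log2 scale. The list of 14 folding genes had 6 higher and 3 lower, where 35.1% and 34.8% of all genes were.

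**Figure D4:**
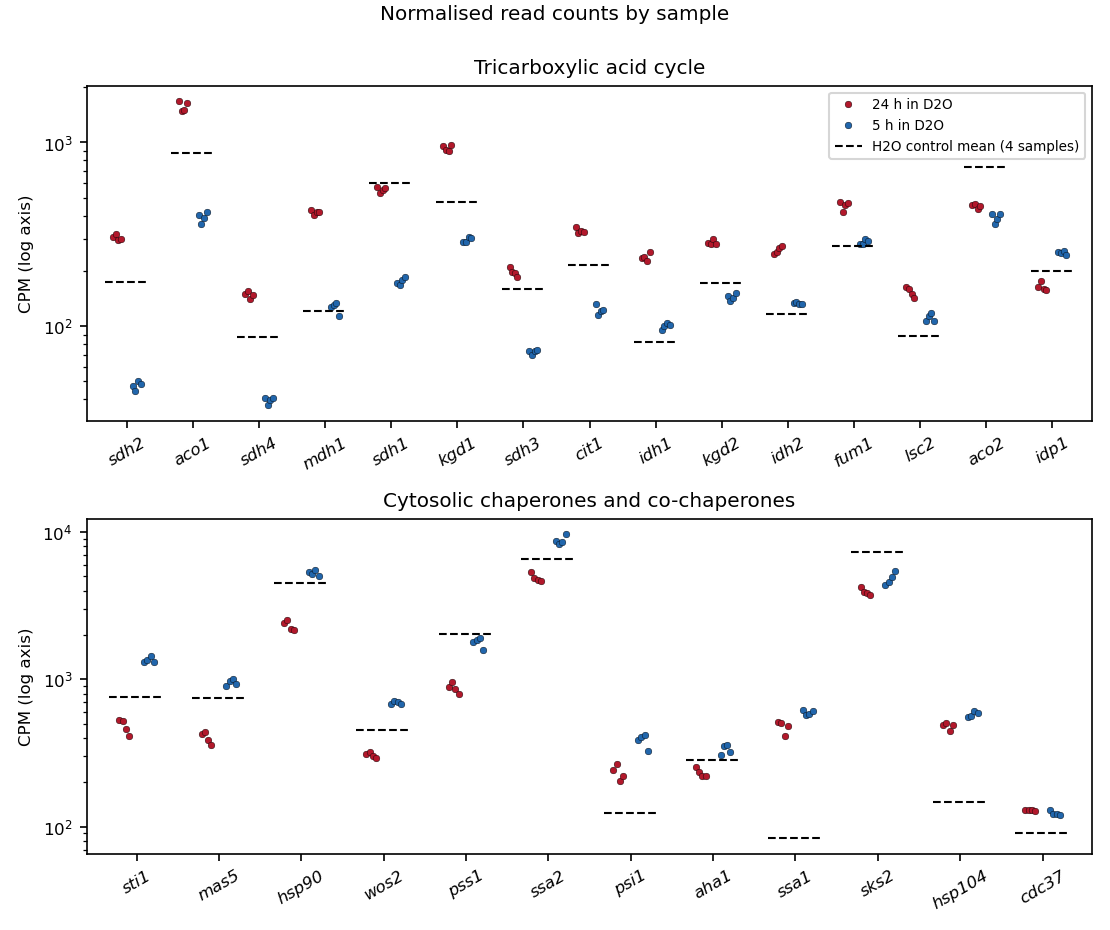
CPM on a log axis for 15 tricarboxylic acid cycle genes (upper panel) and 12 cytosolic chaperone genes (lower panel), with the 4 samples at 24 h in red left of the 4 at 5 h in blue, and the control mean as a dashed line. For sdh2 the 24 h samples lie between 294 and 317 CPM and above the dashed line, and for sti1 between 415 and 531 CPM and below it.

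Stress genes moved in both directions. Of 20 genes of the core environmental stress response, a set induced by many stresses, 11 were higher and 4 lower at 24 h (median 0.28). At 5 h 17 of them had been above control, where 39.2% of all genes were. Of 26 peroxide and redox defence genes 9 were higher and 10 lower, close to the 35.1% and 34.8% of all genes. The sulfiredoxin gene srx1, whose product repairs oxidised peroxiredoxin, had 27.3, 27.3, 31.1 and 32.5 CPM at 24 h, against 236, 242, 242 and 265 CPM at 5 h (log2 fold change -3.06 ± 0.08, adjusted p = 2.19e-13), and it was still above its control level of 12.2 ± 1.53 CPM. The polyamine transporter gene caf5, which an antisense feature overlaps in part, fell by 1.82 and also stayed above control. The calcium pump gene cta3 rose by 1.33 (SE 0.05), and the peroxiredoxin-family gene pmp20 by 1.07 (SE 0.07). Of 23 genes of the Sty1 pathway 12 were higher and 3 lower, none of them 2-fold. Of 10 genes of trehalose and glycerol metabolism 7 were higher and 2 lower (1 lower without 24 h replicate 3 or 4 or 5 h replicate 2 or 3), with the glycerol dehydrogenase gene gld1 at 0.78 ± 0.09 and the glycerol-3-phosphate dehydrogenase gene gpd2 at -0.72 ± 0.05.

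Genes of sugar uptake and use shifted upward between 5 h and 24 h, by different courses. Of 8 hexose transporter genes 6 were higher at 24 h and none lower (median 1.03), against 35.1% and 34.8% of all genes. Their summed counts averaged 2006.2 ± 131.1 CPM at 24 h, 922.4 ± 61.1 CPM at 5 h and 1971.4 ± 286.9 CPM in the control. Of the 8, 3 returned and 2 moved on, as did 21.8% and 35.2% of all genes. The high-affinity glucose transporter gene ght5 had 344, 303, 304 and 296 CPM at 24 h, against 133, 127, 126 and 119 CPM at 5 h (log2 fold change 1.31 ± 0.12, adjusted p = 2.65e-07), with 379 ± 87.6 CPM in the control. The genes ght8, ght7 and ght1 changed by 1.48, 1.41 and 1.20, while ght3 was not called (-0.14 ± 0.06). Without 24 h replicate 4 or control replicate 4, and with protein-coding features alone, ght3 was called lower. Of 16 genes listed under glucose-repressed sugar use, 10 were higher and 1 lower (median 0.68), or 2 lower in those same refits. Among the 16, 7 moved on and none returned, where 35.2% and 21.8% of all genes did. The rises included the maltase gene mal1 (1.51 ± 0.05) and the gluconeogenic fructose-1,6-bisphosphatase gene fbp1 (0.94 ± 0.11). The list also holds scr1, which encodes the repressor of glucose-repressed genes (0.80 ± 0.14). The malic acid transporter gene mae1 fell (-0.54 ± 0.06).

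Glycolysis was mixed, with 4 higher and 4 lower of 13, where 35.1% of all genes were higher and 34.8% lower. The glyceraldehyde-3-phosphate dehydrogenase gene gpd3 rose by 1.30 ± 0.08, while its paralogue tdh1 fell by 0.27. Reads of such paralogous pairs may have been split in counting. Among 10 fermentation genes 6 were higher and 4 lower. The pyruvate decarboxylase gene pdc201 stood out with 542, 452, 462 and 464 CPM at 24 h, against 42.5, 39.3, 40.96 and 45.1 CPM at 5 h (log2 fold change 3.52 ± 0.08, adjusted p = 9.26e-14), with 26.6 ± 2.58 CPM in the control. Every 24 h sample was far above every 5 h sample. A further pyruvate decarboxylase gene, pdc102, rose by 1.23 ± 0.07, and the alcohol dehydrogenase gene adh1 fell by 0.30. Of 19 genes of cAMP and glucose signalling 12 were higher and 3 lower.

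Transcripts for ribosome production were lower again at 24 h. Of 83 genes of large-subunit ribosomal proteins 79 were lower at 24 h and none higher, and of 55 small-subunit genes 54 were lower and none higher, where 34.8% of all genes were lower. The median log2 fold changes were -0.50 and -0.52, and no gene reached 2-fold. At 5 h the medians against control had been -0.74 and -0.72, so that 78 and 54 of the genes moved on, as did 35.2% of all genes. The summed counts of the large-subunit genes were 31234, 29975, 28426 and 27908 CPM at 24 h, against 41387, 40977, 42243 and 40735 CPM at 5 h. Single genes ranged from rps1202 (-0.89 ± 0.10) and rpl2801 (-0.85 ± 0.13) to a few that were not called. Many of these genes are near-identical pairs whose reads may have been split in counting.

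Of 108 ribosome biogenesis factors 96 were lower and 4 higher (median -0.34), and 95 moved on. Over all genes 34.8% were lower and 35.2% moved on. The helicase genes dbp3 and has1 fell by 0.95 and 0.72 on the log2 scale. The helicase gene dbp2 ran against the list, with 240.3, 245, 232 and 222 CPM at 24 h, against 106, 121, 123 and 107 CPM at 5 h (log2 fold change 1.04 ± 0.06, adjusted p = 4.02e-09), and it stayed below its control level of 716 ± 44.5 CPM. Of 42 translation initiation and elongation factors 35 were lower and 2 higher (1 higher under 10 of the refits, among them those without 24 h replicate 1, 3 or 4, 5 h replicate 2 or 3, or control replicate 2 or 4; median -0.25), and of 13 RNA polymerase I genes 7 were lower and 1 higher. Without 5 h replicate 4 the numbers higher were 2 for the polymerase genes and 1 for the large-subunit proteins. The direction of these lists was the same under both other scalings tried.

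Degradation and recycling genes tended upward. Of 30 autophagy genes, whose products deliver cell contents to the vacuole, 22 were higher and 2 lower at 24 h (median 0.43), and 18 of them moved on after rising at 5 h. Over all genes 35.1% were higher and 35.2% moved on. The number lower was 1 without 24 h replicate 3 or 4 or 5 h replicate 3, and 4 with median-of-ratios scaling or with protein-coding features alone. The initiating kinase gene atg1 had 157, 144, 155 and 169.9 CPM at 24 h, against 76.3, 73.2, 73.5 and 82.6 CPM at 5 h (log2 fold change 1.03 ± 0.05, adjusted p = 5.39e-10). The gene atg8, whose protein is joined to the autophagosome membrane, changed by 0.98 ± 0.08, and its protease gene atg4 by 0.95 ± 0.04. Of 37 proteasome subunits 26 were higher and none lower, with a median of 0.20 and no 2-fold change, and without 5 h replicate 4 there was 1 lower. Of 25 genes of the TOR pathway, which couples nutrients to growth, 14 were higher and 4 lower.

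Among 21 genes of nitrogen starvation and nitrogen uptake 12 were higher and 3 lower, or 5 lower without 5 h replicate 4, and over all genes 35.1% were higher and 34.8% lower. The vacuolar protease gene isp6 had 1381, 1246, 1302 and 1368 CPM at 24 h, against 327, 346, 363 and 362 CPM at 5 h (log2 fold change 1.92 ± 0.06, adjusted p = 4.3e-12), with 119 ± 9.56 CPM in the control, and moved on upward. The ammonium transporter gene amt1 changed by 1.03 ± 0.08 and remained below control. The meiotic regulator gene mei2 changed by 2.01 ± 0.06, after a fall of 2.70 at 5 h, and the oxygenase gene isp7 by 1.63 ± 0.07. Mating and meiotic entry genes numbered 14 higher and 8 lower of 29, and meiosis and spore genes 17 higher and 9 lower of 32. In both lists the share lower was below that of all genes. Their larger rises included the mating pheromone gene mfm2 (1.47 ± 0.11), the meiotic inducer gene mei3 (1.32 ± 0.13) and the spore gene isp3 (1.30 ± 0.07).

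Amino acid synthesis genes were mostly lower, with 10 higher and 38 lower of 55 (median -0.33), where 35.1% of all genes were higher and 34.8% lower. The largest falls on the list were those of the arginine genes arg7 and arg4, while arg6 rose by 0.16 ± 0.04 and arg11 was not called (log2 fold change 0.12 ± 0.06, adjusted p = 0.0689), though it was called without control replicate 3 or 4 and when the compared groups were fitted alone. The argininosuccinate lyase gene arg7 had 10.2, 10.9, 10.8 and 10.9 CPM at 24 h, against 27.04, 27.5, 25.9 and 25.9 CPM at 5 h (log2 fold change -1.31 ± 0.06, adjusted p = 9.1e-11), and at 5 h it was not called against its control level of 28.3 ± 1.63 CPM. The genes arg4 and arg5, for the subunits of carbamoyl phosphate synthase, changed by -1.16 ± 0.07 and -0.88 ± 0.08, and the lysine gene lys3 by -0.90 ± 0.05. Glutamine synthetase gln1 ran the other way with glt1, at 0.75 ± 0.08. Of 21 purine and pyrimidine synthesis genes 13 were lower and 3 higher (median -0.22), with ade1 at -0.63 ± 0.09 and ade3 at -0.62 ± 0.05. The ribonucleotide reductase inhibitor gene spd1 rose (0.93 ± 0.06).

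Sulfur assimilation had 7 higher and 5 lower of 18, where 35.1% of all genes were higher and 34.8% lower. Homoserine acetyltransferase met6 rose by 1.31 ± 0.05, the sulfate transporter gene sul1 by 0.98 ± 0.06 and the sulfite reductase gene sir1 by 0.94 ± 0.06, while met17 fell (-0.68 ± 0.06). Of 6 genes of arginine, proline and gamma-aminobutyrate use 3 were higher and 2 lower, and the sign of their median depended on the scaling.

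Fatty acid and storage lipid genes mostly came back. Of 23, 17 were higher and 3 lower (median 0.56), where 35.1% of all genes were higher. At 5 h 15 had been below control, against 39.3% of all genes, and 15 returned, against 21.8%. The desaturase gene ole1 had 3892, 3127, 3309.5 and 3039.8 CPM at 24 h, against 1403, 1368, 1460.0 and 1379 CPM at 5 h (log2 fold change 1.25 ± 0.08, adjusted p = 5.06e-09), with 3779 ± 363 CPM in the control. The acetyl-CoA carboxylase gene cut6 changed by 1.16 ± 0.05, to a level not called against control. The lipin gene ned1 and the lipase gene ptl2 changed by 1.15 ± 0.05 and 1.10 ± 0.04. Of 36 genes of ergosterol synthesis and its sterol-sensing control 17 were higher and 7 lower (median 0.04), where 35.1% and 34.8% of all genes were. The C-5 sterol desaturase genes moved in opposite directions, erg31 by 1.01 ± 0.10 and erg32 by -0.88 ± 0.06, each back towards its control level. Of 19 proton pump genes 11 were lower and 2 higher, among them the plasma membrane pump gene pma1 (-0.42 ± 0.11).

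For metals other than iron the changes were gene by gene. Among 9 copper genes 2 were higher and 5 lower. The number lower was 2 without 5 h replicate 1 and 3 without 24 h replicate 1 or 5 h replicate 2, 3 or 4, and the number higher was 1 without 5 h replicate 3. Fitting the compared groups alone also gave 3 lower. Over all genes 35.1% were higher and 34.8% lower. The copper transporter gene ctr4 had 87.95, 173, 189 and 184 CPM at 24 h, against 305, 329, 106 and 382 CPM at 5 h (log2 fold change -0.83 ± 0.30, adjusted p = 0.0256). Its groups overlapped, since 5 h replicate 3 was the lowest of its group, as 24 h replicate 1 was of its own. The same 2 samples were the lowest of their groups for the partner gene ctr5, with 36.1, 65.7, 57.6 and 51.6 CPM at 24 h, against 113, 129, 49.9 and 111 CPM at 5 h (log2 fold change -0.93 ± 0.23, adjusted p = 0.00233). They were the highest for the superoxide dismutase gene sod1, with 296, 181, 172 and 161 CPM at 24 h, against 158, 169, 374 and 138 CPM at 5 h (log2 fold change -0.05 ± 0.27, adjusted p = 0.876). Without 24 h replicate 1 the log2 fold change of ctr4 was -0.63 and its adjusted p 0.0725, and without 5 h replicate 3 it was -1.10 with an adjusted p of 0.000235. The call of ctr4 was also lost without 5 h replicate 1, 2 or 4 and when the compared groups were fitted alone. The corresponding values of ctr5 were -0.79 and -1.16, and those of sod1 were -0.29 and 0.38, neither of them called. The part of these samples in other results was tested by leaving each out in turn.

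Of 9 zinc genes 2 were higher and 4 lower, where 35.1% of all genes were higher and 34.8% lower. The metallothionein gene zym1, already 5.49 above control on the log2 scale at 5 h, had 759.8, 728, 731 and 795 CPM at 24 h, against 291, 298, 308 and 333 CPM at 5 h (log2 fold change 1.29 ± 0.10, adjusted p = 4.46e-08). The zinc importer gene of the endoplasmic reticulum, zhf1, changed by -0.91 ± 0.05, the zinc uptake gene zrt1 by -0.68 ± 0.07, and loz1, the repressor of zinc uptake, by 0.71 ± 0.07. Of 8 phosphate genes 3 were higher and 1 lower (2 lower without 24 h replicate 2 or 5 h replicate 3 or 4, with library size alone, with protein-coding features alone and by DESeq2), the largest being the glycerophosphodiester transporter gene tgp1 (1.67 ± 0.08).

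**Figure D5:**
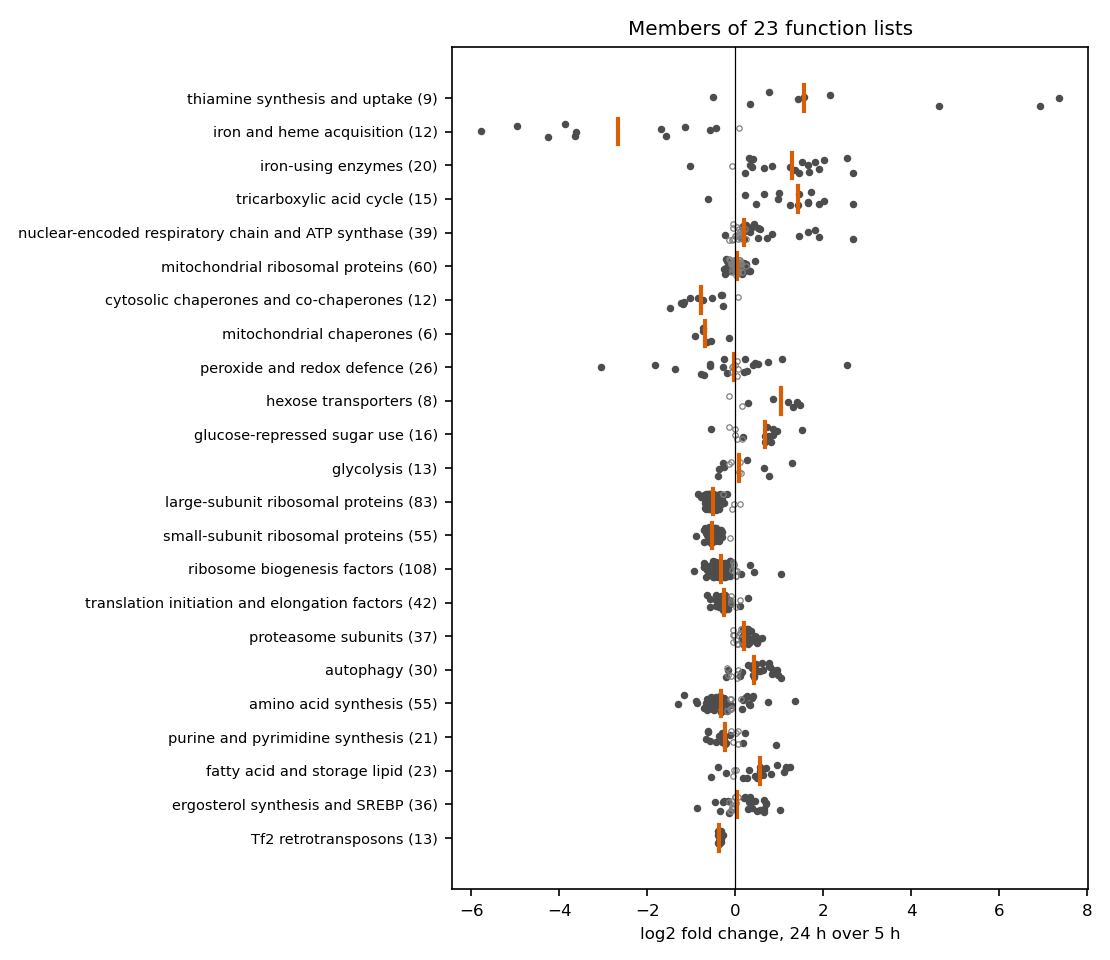
Log2 fold change of 24 h over 5 h (horizontal axis) for each tested member of 23 function lists. Filled points were called at an adjusted p under 0.05, open points were not, and the orange bar is the median of the list. The medians range from -2.66 for iron and heme acquisition to 1.55 for thiamine.

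Surface, cytoskeleton and cell cycle genes had list medians between -0.02 and 0.21. The counts below stand beside 35.1% higher and 34.8% lower over all genes. Glucan synthase genes numbered 10 higher and 4 lower of 18, glucan remodelling and cell separation 7 higher and 11 lower of 28, the wall integrity pathway 9 higher and 3 lower of 21, and flocculins 10 higher and 7 lower of 18. In the remodelling list the septum glucanase gene eng1 fell by 1.05 and the glucosidase gene bgl2 rose by 1.05. Tubulin and microtubule factor genes numbered 13 higher and 7 lower of 33, actin, formin and myosin genes 20 higher and 3 lower of 33, G1/S genes 11 higher and 9 lower of 31, and mitotic regulators 18 higher and 8 lower of 42. The tubulin gene atb2 rose by 0.40 ± 0.05 and the actin gene act1 by 0.34 ± 0.04. The securin gene cut2 was the 1 mitotic gene past 2-fold (log2 fold change 1.08 ± 0.07, adjusted p = 1.16e-08). Histone genes numbered 5 higher and 2 lower of 11, with hhf2 and hht2, an H4 and H3 pair, at 0.62 ± 0.08 and 0.47 ± 0.08.

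Of 30 heterochromatin and silencing factors 10 were higher and 14 lower, where 35.1% and 34.8% of all genes were, with clr5 the 1 gene past 2-fold (1.01 ± 0.10). Of 12 multidrug transporter genes 5 were higher and 7 lower. All 13 Tf2 retrotransposons were lower at 24 h (median -0.36) and stayed above control, from which they had risen by a median of 1.16 at 5 h. The copies are nearly identical and share reads, so they do not count as 13 independent genes.

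Several of the largest rises were single genes outside the lists above. SPBC19C7.04c, an uncharacterised gene, had 1399, 1555, 1469 and 1358 CPM at 24 h, against 109, 119, 128 and 106 CPM at 5 h (log2 fold change 3.65 ± 0.12, adjusted p = 3.84e-12), with 30.8 ± 6.07 CPM in the control. The flavoprotein gene aif1 had 220.1, 201, 204 and 224 CPM at 24 h, against 24.3, 21.1, 25.5 and 23.8 CPM at 5 h (log2 fold change 3.17 ± 0.06, adjusted p = 2.42e-14). All 4 samples of aif1 at 24 h were above the control level of 33.7 ± 2.18 CPM, while the 4 at 5 h were below it. Being named by size, aif1 was chosen with no overlap between the 24 h and 5 h groups, so their separation is a description. The groups did not overlap in 62.9% of all genes. The meiotically upregulated genes mug114 and mug111 changed by 3.80 ± 0.31 and 2.85 ± 0.07. The values of mug114 were low, with means of 20.8 ± 7.04 CPM at 24 h and 1.49 ± 0.0828 CPM at 5 h, and 12.8 ± 3.80 CPM in the control. A neighbouring group of 3 genes named for their response to uracil rose together. Of these, urg1 had 1434, 1399, 1409 and 1324 CPM at 24 h, against 175, 209, 217 and 183 CPM at 5 h (log2 fold change 2.83 ± 0.07, adjusted p = 2.95e-13), and urg2 and urg3 changed by 2.56 ± 0.06 and 1.15 ± 0.07. All 3 had been below control at 5 h and were above it at 24 h.

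The proteasome regulator gene fub2 had 108, 95.7, 95.1 and 77.4 CPM at 24 h, against 14.4, 14.04, 16.6 and 14.2 CPM at 5 h (log2 fold change 2.67 ± 0.10, adjusted p = 2.03e-11), with 0.459 ± 0.187 CPM in the control. An antisense feature covers most of fub2, so reads of the pair cannot be told apart. SPAC806.11 (2.70 ± 0.08) is wholly overlapped by the non-coding feature prl3, and the acetamidase gene fah1 (2.19 ± 0.09) by grt1. On the other side, the oligopeptide transporter gene opt3, wholly overlapped by an antisense feature, had 55.9, 57.8, 57.03 and 54.2 CPM at 24 h, against 388, 344, 335 and 357 CPM at 5 h (log2 fold change -2.66 ± 0.05, adjusted p = 2.87e-14). At 24 h opt3 remained above its control level of 34.6 ± 1.98 CPM. SPAC8E11.10, annotated as a sorbose reductase, had 44.7, 46.6, 51.1 and 42.0 CPM at 24 h, against 213, 199, 179 and 198 CPM at 5 h (log2 fold change -2.10 ± 0.07, adjusted p = 3.06e-12), with 516 ± 15.8 CPM in the control, so that it moved on downward. The methyltransferase gene cmt2 changed by -1.60 ± 0.12 and the acetyltransferase gene SPAC11D3.02c by -1.63 ± 0.06, the second wholly overlapped by a non-coding feature.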

How the data were processed

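RNA was sequenced from 4 samples each at 24 h in D2O, at 5 h in D2O and untreated in ordinary water. The deposited tables hold, per the file headers, whole-number read counts per feature, a feature length and an RPKM value. The deposited RPKM values were recomputed from count and length to within a relative difference of 4.96e-06 and were not tested. BWA 0.7.12 is listed in the submitters' processing notes. The counting program, genome build, strandedness and any removal of ribosomal RNA are not given in the sources used here, so no coordinates or sequences are printed. Total counts were 26775612 to 27166349 per sample. No pair of replicates agreed within sampling noise (chi-square per degree of freedom at least 8.32), so each counted as 1 sample.

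Of 7015 features 97.8% matched the RefSeq annotation of assembly ASM294v3, used for names, classes and overlaps, and 8 mitochondrial genes were added by name. All 12 samples entered 1 fit of edgeR 4.0.16 (R 4.3.3) with TMM scaling, filterByExpr at a minimum of 10 counts, and the group as its only term, which left 6683 features, over which Benjamini-Hochberg adjustment ran. The biological coefficient of variation was 8.47%. CPM are read counts scaled to library size and TMM factor, and the SE of a log2 fold change is its size divided by the square root of F. Genes were named as the 15 largest rises and falls at a mean of at least 8 CPM without overlap between groups, the 5 largest in each class, and the 4 largest of each of 54 function lists (all members up to 16). A few further members, chosen after their values were seen, are named beside them. The members and lists were chosen with earlier results of these data known, and 19 listed symbols were removed afterwards because their RefSeq product named another function. Lists are described by counts and medians, with no test. The alternatives tried were scaling by median of ratios or by library size, testing every feature, requiring a mean count of 50, blocking on the replicate number, fitting the compared groups or the protein-coding features alone, the tool DESeq2 1.42.0, and omitting each sample in turn. The split by overlap of features was added after seeing the data.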

Additional observations from a re-analysis of the deposited data

Results flagged for a closer look

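Over 66 groups of 4 samples checked (32 named genes and the share of ribosomal RNA, at 24 h and at 5 h), 5 values lay far from the other 3 samples of their group, by the gap to the nearest sample relative to the range of the group. With 4 samples, chance sets off this rule in about 1 in 20 groups. The pyruvate decarboxylase gene pdc201 had 542 CPM in 24 h replicate 1, against 452 to 463.5 CPM in the other 24 h samples. The siderophore transporter gene str3 had 6.84 CPM in 24 h replicate 4, against 5.00 to 5.20 CPM in the other 24 h samples. Both genes kept their direction and call without that sample. In 5 h replicate 3 the proteasome regulator gene fub2 had 16.6 CPM and the vacuolar transporter gene abc3 403 CPM, the highest and the lowest of the group. Ribosomal RNA features took 2.836% of the counts in 24 h replicate 2.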

How the results depend on the processing

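The counts of genes higher and lower at 24 h and the sizes of the classes stayed within 1.5 times their values under every alternative tried. Leaving out single samples gave 1684 to 1807 higher genes and 1671 to 1792 lower ones, with 997 to 1126 that returned and 1688 to 1802 that moved on. Other scalings, filters and models gave 1657 to 1842 higher and 1720 to 1821 lower, and scaling by library size alone gave the lowest number higher, with 1657 higher and 1793 lower. DESeq2 called 1771 higher and 1809 lower. With the replicate number as a block 1832 genes were higher and 1816 lower. Deviations from the group means of same-numbered samples at 24 h and 5 h correlated at -0.046, 0.585, -0.128 and 0.412. Samples of different number were not compared, so these values cannot say whether the numbers pair the samples. The main fit left the numbers out because they are not stated to mark a shared culture. Under the block no call of the 32 genes named by size changed. The genes hsp9 and atp8 became called, and the phosphate and respiration lists each had 2 genes lower in place of 1. The 32 genes named by size kept direction and call in all 640 refits. Of the refitted counts of the lists, 19 of genes higher (7 lists) and 38 of genes lower (11 lists) moved by over 1.5 times. The lists were copper, small heat shock proteins, mitochondrially encoded genes, cytosolic chaperones, large-subunit ribosomal proteins, RNA polymerase I, translation factors, autophagy, glucose-repressed genes, hexose transport, phosphate, respiration, trehalose and glycerol, mitochondrial ribosome, nitrogen and proteasome. Except for copper, the mitochondrial ribosome, autophagy and nitrogen, such a count moved by 1 gene. The median moved by more than the spread between samples for the mitochondrial ribosome (0.021 and 0.027, against 0.048), autophagy (0.467, against 0.427) and tubulin (0.075, against 0.029). The median over all genes was -0.012 with median-of-ratios scaling and -0.02 with library size alone. Genes with fewer counts than the filter's minimum of 10 were not tested, and changes near the floor of 3 counts were not detectable at this depth.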

Other observations

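A few genes too low for the expression minimum of the named genes had the steepest rises outside thiamine synthesis and uptake. They were picked here after their values were seen. The gene hry1, which encodes a cation-binding domain protein, had 14.6, 13.6, 12.3 and 12.1 CPM at 24 h, against 0.494, 0.175, 0.494 and 0.387 CPM at 5 h (log2 fold change 5.07 ± 0.19, adjusted p = 1.58e-11). Its control samples averaged 0.102 ± 0.0721 CPM, which is at the floor of 3 counts. The GPI-anchored protein genes SPAC212.08c and SPAC212.12, which carry neighbouring identifiers, also rose. The gene SPAC212.08c changed by 4.02 ± 0.20 and SPAC212.12 by 3.84 ± 0.16. For SPAC212.08c the values were 12.04, 12.6, 11.7 and 11.7 CPM at 24 h, against 1.06, 0.771, 0.635 and 0.493 CPM at 5 h. The uncharacterised gene SPAC750.07c changed by 3.89 ± 0.18. In each of the 4 genes every sample at 24 h was above every sample at 5 h. Because they were picked for steep rises, this separation is a description (the groups did not overlap in 62.9% of all genes).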
